A study of Mus musculus with 18 samples.

Results

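In female F1 mice that carry 1 set of 129S1 and 1 set of Cast chromosomes, reads from splenic CD23+ B cells can be assigned to the allele they came from. The RNA examined here was taken 24 h after in vitro stimulation with 1 µM CpG, and the 129 reads of each autosomal gene were compared with the Cast reads of the same gene in the same sample. A gene was matched between the 129 and the Cast table where its name and chromosome were the same and the name was unique in both, which left 27326 autosomal genes. Of these, 7969 had at least 30 reads over both alleles in each of the 3 stimulated samples and were tested. The weight lies on 88 of them that had under 10 reads over both alleles in every naive sample, called naive-low genes here, because their allelic balance could be measured only after CpG.

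The labels give 18 samples, of which 6 were used: 3 samples stimulated with CpG for 24 h and 3 naive samples that received no treatment. Both groups share the genotype F1 129S1/Cast with Xist+/-, which per the labels keeps X inactivation on the Cast chromosome, and only autosomes are described. The labels do not give the age of the mice, which strain was the mother, or whether samples of a group came from separate animals, so p-values measure the spread between these samples. The other 12 samples were not analysed here.

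In an F1 hybrid both alleles of a gene sit in the same nucleus and meet the same transcription factors, so the ratio of their RNA is a standard readout of differences carried on the chromosome itself. Unmethylated CpG DNA binds the endosomal receptor TLR9, and B cells that receive it leave quiescence, enter the cell cycle and secrete cytokines such as interleukin 6. Many genes of that programme are close to silent in resting B cells.

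Stimulated samples had 2811986 to 2928236 gene reads on the 129 allele and 3119432 to 3321753 on the Cast allele. Over the matched autosomal genes the Cast share of reads was 52.9% ± 0.812 (SD, n = 3) after CpG and 52.7% ± 0.793 (SD, n = 3) in naive cells. No pair of libraries was alike within sampling noise. The 7 matched B cell markers of 8 summed to 2886 to 3496 CPM, that is reads scaled to the library total, after CpG and to 8265 to 10230 CPM in naive cells, and none of them was at 0. The 10 macrophage markers summed to 8.79 to 10.1 CPM after CpG, which is 42 to 51 reads, against 1965 to 4842 CPM in naive cells. T cell markers summed to 8 to 12 reads, and the neutrophil markers, of which 3 of 4 matched, to 2 to 4 reads per stimulated sample.

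The promoters of 4 naive-low genes are shown first, because these genes had some of the most unequal alleles: Oip5 and Il6 on the 129 side, Kirrel and Atp6v0e2 on the Cast side. Each line runs 5′ to 3′ from 250 bases before to 50 bases after the annotated start, as RefSeq gives it for GRCm38.p6. That is the C57BL/6J reference and neither of the alleles measured. Capitals mark CCAAT and TTTGAA on either strand (ATTGG and TTCAAA where the match is on the other strand).
Oip5 (chr2:119618456-119618755, minus strand): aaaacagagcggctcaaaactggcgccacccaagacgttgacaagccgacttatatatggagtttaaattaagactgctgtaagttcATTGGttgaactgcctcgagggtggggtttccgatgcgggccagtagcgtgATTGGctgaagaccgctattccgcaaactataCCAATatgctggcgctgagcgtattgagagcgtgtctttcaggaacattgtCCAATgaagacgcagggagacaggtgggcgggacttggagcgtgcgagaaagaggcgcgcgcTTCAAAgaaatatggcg
Il6 (chr5:30012864-30013163, plus strand): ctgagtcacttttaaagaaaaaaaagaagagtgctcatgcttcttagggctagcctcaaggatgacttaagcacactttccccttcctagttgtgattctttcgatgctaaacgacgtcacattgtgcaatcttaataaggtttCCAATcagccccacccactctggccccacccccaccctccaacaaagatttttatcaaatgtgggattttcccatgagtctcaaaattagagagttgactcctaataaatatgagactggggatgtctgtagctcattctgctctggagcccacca
Kirrel (chr3:87174488-87174787, minus strand): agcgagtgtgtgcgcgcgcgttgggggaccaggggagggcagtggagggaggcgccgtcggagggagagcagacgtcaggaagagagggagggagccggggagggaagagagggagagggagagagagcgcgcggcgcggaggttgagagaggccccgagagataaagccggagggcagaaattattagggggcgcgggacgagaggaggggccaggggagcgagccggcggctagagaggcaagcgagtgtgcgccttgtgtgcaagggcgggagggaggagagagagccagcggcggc
Atp6v0e2 (chr6:48537319-48537618, plus strand): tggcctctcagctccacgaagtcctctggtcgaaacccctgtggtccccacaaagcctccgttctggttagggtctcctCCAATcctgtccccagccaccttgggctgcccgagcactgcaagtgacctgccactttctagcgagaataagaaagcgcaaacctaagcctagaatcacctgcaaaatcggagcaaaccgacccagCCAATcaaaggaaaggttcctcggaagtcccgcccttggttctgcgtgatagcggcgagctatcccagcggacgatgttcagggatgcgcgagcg

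The CCAAT box is a binding sequence of the factor NF-Y, and TTTGAA is the core of the cell cycle homology region found in promoters of mitotic genes. The Oip5 promoter held 4 CCAAT matches and 1 TTTGAA match. The Il6 promoter held 1 CCAAT match, that of Atp6v0e2 held 2, and that of Kirrel held neither motif. A promoter entry was found for 70 of the 88 naive-low genes. CCAAT was present in 39 of these 70 (55.7%), in 39.5% of the promoters of tested genes and in 37.9% of all promoters of the same length. TTTGAA was present in 19 of 70 (27.1%), against 11.7% of tested genes and 18.1% of all promoters. Some of the 70 genes had more than 1 promoter entry, such as Ak4 with 4, and presence was scored per gene. The shares were not adjusted for the number of entries. These counts describe letters in the reference and were not tied to the allelic ratios.

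Of the 88 naive-low genes, 24 (27.3%) had unequal alleles by edgeR's quasi-likelihood test at an adjusted p of at most 0.05. Over all tested genes 1801 of 7969 did, a share of 22.6%. The Cast allele was higher in 17 of the 24 and the 129 allele in 7. The background was 13.9% of all tested genes called toward Cast and 8.75% toward 129. The remaining 64 naive-low genes did not pass, and 39 of the 88 had an unadjusted p under 0.05. The naive-low share called is read here as near the background of all tested genes, which had more reads per gene.

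The direction of these calls depended on the scaling. With both alleles of a library given 1 library size, 1104 genes were called toward Cast and 697 toward 129. With a TMM factor for each allele, which moved the median log2 ratio of Cast to 129 over all tested genes from 0.12 to 0.01, the split was 942 and 948, and 16 and 11 for the naive-low genes. Without replicate 2 the counts fell to 948 of all tested genes and 11 of the naive-low genes. All 24 called naive-low genes lay on the same side of 50% in each of the 3 samples, as did 55 of the 88 (62.5%) against 59.7% of all tested genes.

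The ratios of the naive-low genes were spread more widely and were measured on fewer reads. Their mean Cast share had a median of 53.9%, with quartiles of 41.8% and 69.4%, against 52.1% with quartiles of 46.8% and 58.9% over all tested genes. The absolute log2 ratio had a median of 0.72 in the naive-low genes and 0.35 over all tested genes. They also had a median of 85.8 reads per sample over both alleles, against 287 over all tested genes. The SD of the Cast share between samples had a median of 6.73 percentage points, against 3.96. Another 617 tested genes had under 30 reads in at least 1 naive sample without being naive-low, and are called between genes here. They had a median of 82.7 reads per sample. Their absolute log2 ratio had a median of 0.49 and their SD a median of 6.62 percentage points. How much of the wider spread came with the lower read number was not tested.

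**Figure D1:**
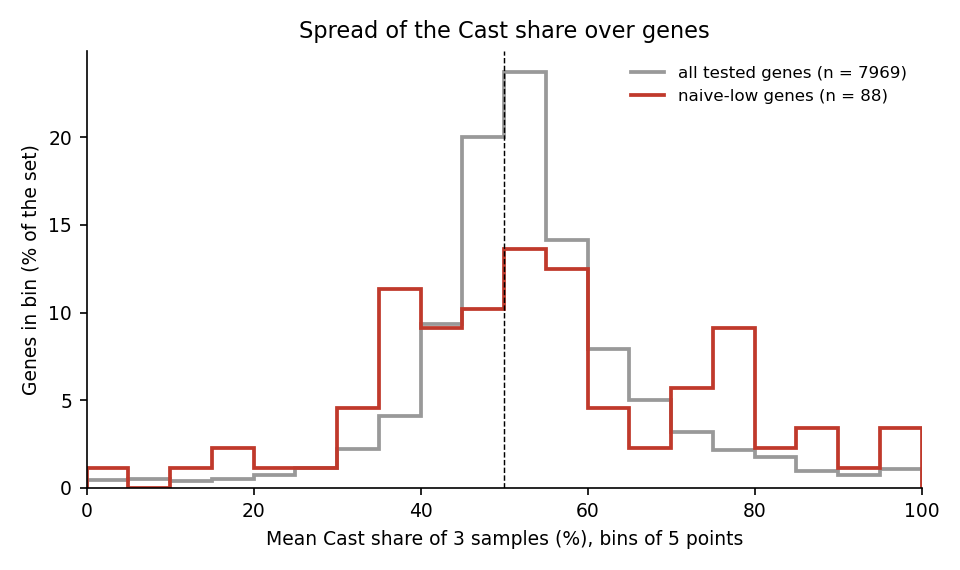
Distribution of the mean Cast share of reads (percent, horizontal axis, bins of 5 points) over genes, as the percent of each set falling in a bin (vertical axis), for all 7969 tested genes in grey and the 88 naive-low genes in red. The red outline is lower and wider: its quartiles are 41.8% and 69.4%, against 46.8% and 58.9% in grey, and the dashed line marks equal alleles.

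A strong imbalance, meaning a Cast share of at least 80% in all 3 samples or at most 20% in all 3, was found in 10 of 88 naive-low genes (11.4%) against 4.4% of all tested genes. Of the 10, 8 were on the Cast side, where the background was 2.87%, and 2 on the 129 side, where it was 1.53%. At the other end, 13 of 88 (14.8%) kept a Cast share between 40% and 60% in all 3 samples, against 44.9% of all tested genes. Of the between genes, which had a similar read number, 6.6% were strongly unequal and 25.6% kept to 40% to 60%. In 37 of 88 (42.0%) the read counts of the alleles did not overlap between samples, against 40.6% of all tested genes. The share of genes without overlap was thus near the background of all tested genes. Of the between genes, 34.0% were without overlap and 19.45% were called, both below the naive-low shares. Neither these differences nor that in strong imbalance were tested.

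**Figure D2:**
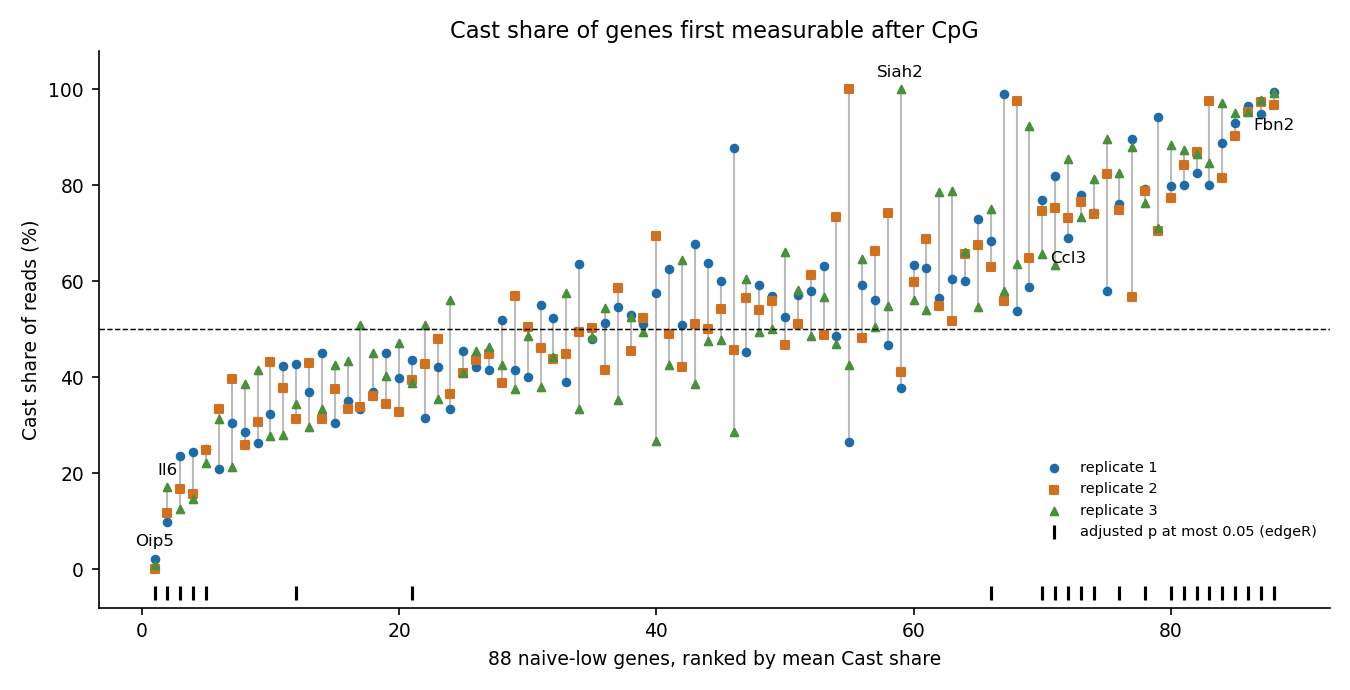
Cast share of reads (percent, vertical axis) in stimulated replicates 1, 2 and 3 for the 88 naive-low genes, ordered by their mean share (horizontal axis), with a grey line from the lowest to the highest sample. Black ticks mark the 24 genes called by edgeR, which gather at both ends, while the long lines in the middle, such as that of Siah2, belong to genes whose samples disagreed.

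Among secreted signals, interleukin 6 was read mostly from the 129 allele and the chemokine CCL3 mostly from the Cast allele. Il6 (chromosome 5), a cytokine that drives B cell and plasma cell responses, had 100, 127 and 116 reads on the 129 allele and 11, 17 and 24 on the Cast allele in stimulated replicates 1, 2 and 3. The groups did not overlap, and the Cast share was low in every sample, at 12.95% ± 3.75 (SD, n = 3). The 129 allele was 6.72-fold higher (log2 Cast to 129 -2.75, SE 0.25, edgeR adjusted p = 0.00355). In naive cells the gene had 0, 1 and 0 reads over both alleles.

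Ccl3 (chromosome 11), a chemokine that attracts T cells and monocytes, had 225, 63 and 116 reads on the 129 allele and 499, 172 and 677 on the Cast allele. The Cast allele was higher within each sample, and replicate 2 was low on both alleles, so that the counts overlapped between samples. Its Cast share was 75.8% ± 8.54 (SD, n = 3) and the ratio 3.28-fold (log2 1.71, SE 0.34, edgeR adjusted p = 0.0463). This call sat close to the threshold: the edgeR adjusted p was 0.0662 without replicate 1 and 0.191 without replicate 2. In replicate 3, where the Cast share was highest, the 20 nearest genes measurable in naive cells had a median Cast share of 62.0% in the naive sample of the same number, against 47.9% and 49.5% in replicates 1 and 2. Macrophages also make both messages. Their 10 markers summed to 42 to 51 reads per stimulated sample, of which Adgre1 had 20, 17 and 20 and Mrc1 17, 24 and 17, while the others had 0 to 3 reads each. Their part in the Il6 and Ccl3 reads was not tested. The cytokine and receptor list had 29 tested genes, of which 10 were called toward Cast and 7 toward 129, against 13.9% and 8.75% of all tested genes. Its only naive-low members were Il6 and Ccl3.

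Genes of mitosis gave 7 naive-low members of 88 tested, of which 2 passed, Oip5 and Kif22, both toward 129. Oip5 (chromosome 2), a subunit of the complex that deposits the centromeric histone CENP-A, was read almost only from the 129 allele. It had 87, 172 and 102 reads on the 129 allele and 2, 0 and 1 on the Cast allele. Summed over the samples this is 361 reads against 3, a ratio of 120 with a 95% counting interval of 40.9 to 586 (edgeR adjusted p = 0.00358). Nusap1, another mitotic gene, overlaps it on the opposite strand, and whether the counting used strand is not given in the sources used here. This limit is not particular to Oip5. Among all naive-low genes, 36 overlap a gene on the opposite strand and 11 overlap one on the same strand. In replicate 1 the neighbours of Oip5 had a median Cast share of 81.2% in naive cells, so Oip5 and its neighbours leaned to opposite alleles in that sample.

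Kif22 (chromosome 7), a kinesin that moves chromosome arms, had 106, 233 and 112 reads on the 129 allele and 79, 106 and 59 on the Cast allele. The 129 allele was higher in each sample and the counts overlapped between samples. The Cast share was 36.2% ± 5.89 (SD, n = 3), and the log2 ratio was -0.83 (SE 0.19, edgeR adjusted p = 0.0447). The call was lost without replicate 2 (edgeR adjusted p = 0.199) and without replicate 3 (edgeR adjusted p = 0.126). It was also lost with DESeq2 (adjusted p = 0.0534).

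The other 5 mitotic members did not pass. Ska1, part of the complex that holds kinetochores to spindle microtubules, had 52, 70 and 70 reads on the 129 allele and 141, 146 and 84 on the Cast allele. The Cast reads were above the 129 reads without overlap, and the ratio just missed the threshold (log2 0.92, SE 0.27, edgeR adjusted p = 0.0827). It passed without replicate 3, with an edgeR adjusted p of 0.0301. Mastl, the Greatwall kinase that restrains mitotic phosphatase activity, had a Cast share of 54.2% ± 4.81 (SD, n = 3). For Iqgap3, a scaffold protein of dividing cells, the share was 56.2% ± 7.24 (SD, n = 3). Ccnb2, the mitotic cyclin B2, and Gtse1, a microtubule-binding protein of G2 and S phase, had mean shares of 44.2% and 54.1%. Over all 88 tested mitotic genes, 20 were called, against 22.6% of all tested genes: 10 toward Cast and 10 toward 129. Their median Cast share was 51.7%, against 52.1% over all tested genes.

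DNA replication and repair gave 6 naive-low members of 87 tested, with 1 call. Cdc45, a subunit of the replicative helicase, was close to balanced in every sample: 88, 111 and 102 reads came from the 129 allele and 81, 112 and 96 from the Cast allele. Its Cast share was 48.9% ± 1.20 (SD, n = 3). Recql4, a helicase of replication start and repair, had 62, 60 and 46 reads on the 129 allele and 65, 66 and 45 on the Cast allele, a share of 51.0% ± 1.47 (SD, n = 3). Both genes had overlapping counts and no difference beyond the replicate spread (edgeR adjusted p = 0.757 and 0.827).

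Mnd1 (chromosome 3), a protein of meiotic recombination, was the member called. It had 33, 62 and 17 reads on the 129 allele and 131, 211 and 128 on the Cast allele, without overlap. The Cast share was 81.8% ± 5.74 (SD, n = 3) and the ratio 4.51-fold (log2 2.17, SE 0.27, edgeR adjusted p = 0.00829). Its neighbours had naive Cast shares of 49.4%, 51.5% and 67.4% in replicates 1, 2 and 3, and Mnd1 itself had its highest share in replicate 3. The other 3 members were not called, and of these Aunip differed widely between samples, as described further on. The 87 tested genes of this list had a median Cast share of 51.0%, with 11 called toward Cast and 6 toward 129, and 22.6% of all tested genes were called in either direction.

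**Figure D3:**
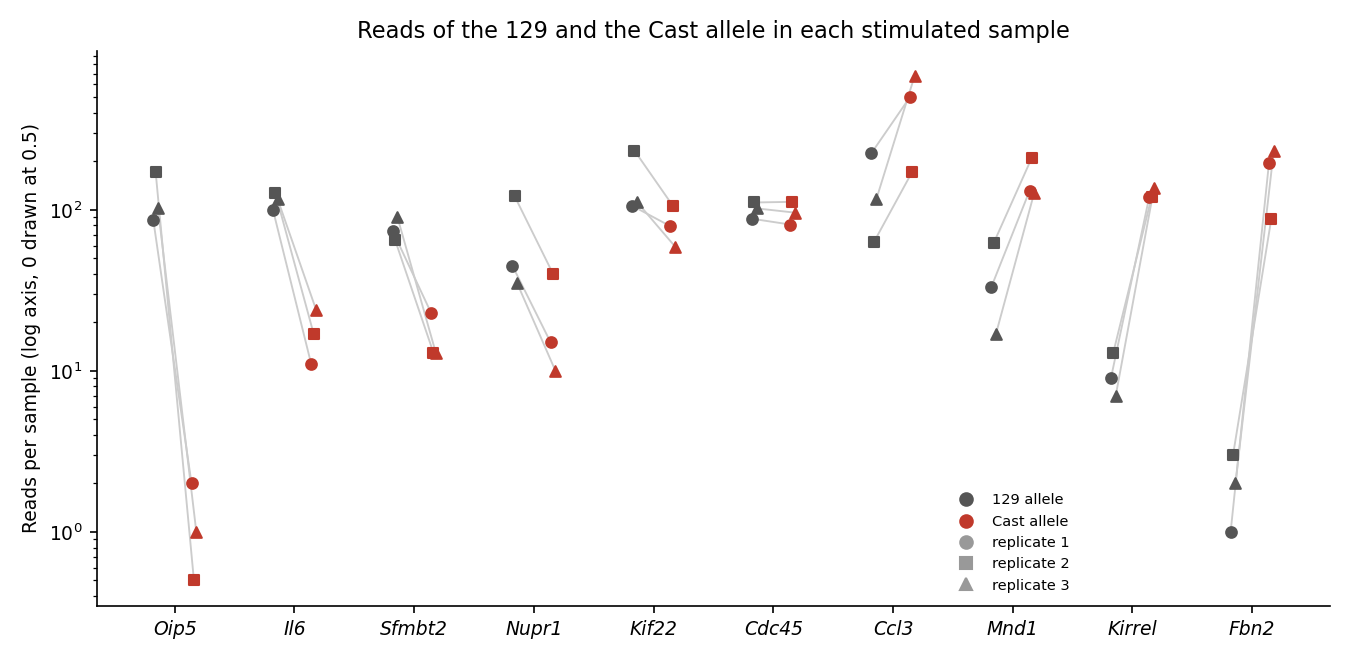
Reads per sample (vertical log axis, with 0 drawn at 0.5) on the 129 allele in grey and the Cast allele in red for 10 naive-low genes, with each line joining the alleles of a sample and symbols marking replicates 1, 2 and 3. Lines fall steeply for Oip5 and Il6, run flat for Cdc45 and rise steeply for Kirrel and Fbn2, in the same direction in all 3 samples.

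Metabolism and nutrient transport gave 6 naive-low members of 81 tested, of which Cbs alone passed. Cbs (chromosome 17), the cystathionine beta-synthase that starts the conversion of homocysteine to cysteine, had 6, 7 and 1 reads on the 129 allele and 48, 31 and 35 on the Cast allele. The Cast reads exceeded the 129 reads without overlap, with a share of 89.2% ± 7.83 (SD, n = 3) and a log2 ratio of 3.03 (SE 0.54, edgeR adjusted p = 0.0224). The edgeR adjusted p was 0.0514 without replicate 1 and 0.0643 without replicate 2. The next enzyme of that route, Cth, had a mean Cast share of 57.4% and was not called.

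Pycr1, an enzyme of proline synthesis, had 52, 74 and 54 reads on the 129 allele and 38, 57 and 45 on the Cast allele, a share of 43.7% ± 1.63 (SD, n = 3). The 129 allele was higher in every sample, but not beyond the error of the fit (edgeR adjusted p = 0.229). Slc43a3, a purine nucleobase transporter, had a share of 46.4% ± 8.51 (SD, n = 3). In Ak4, a mitochondrial adenylate kinase, the share was 63.7% ± 13.8 (SD, n = 3), from 51.7% in replicate 2 to 78.8% in replicate 3. Fads2, a fatty acid desaturase, had a mean share of 42.4%. Over the 81 tested genes of the list, 26 were called, 16 toward Cast and 10 toward 129, against 22.6% of all tested genes.

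Nupr1 and Sfmbt2, which act on chromatin and transcription, both had higher 129 reads. Nupr1 (chromosome 7), a small stress-induced chromatin protein, had 45, 121 and 35 reads on the 129 allele and 15, 40 and 10 on the Cast allele. The total differed by sample while the ratio hardly moved, at a Cast share of 24.0% ± 1.56 (SD, n = 3) and a log2 ratio of -1.64 (SE 0.21, edgeR adjusted p = 0.00909), and the edgeR adjusted p was 0.0822 without replicate 2.

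Sfmbt2 (chromosome 2) encodes a Polycomb group protein and is known as an imprinted gene read from the paternal allele in some tissues. It had 74, 65 and 90 reads on the 129 allele and 23, 13 and 13 on the Cast allele, without overlap. The Cast share was 17.7% ± 5.61 (SD, n = 3) and the log2 ratio -2.24 (SE 0.30, edgeR adjusted p = 0.0100), with an edgeR adjusted p of 0.0731 without replicate 2. A parental and a strain difference cannot be told apart in this cross. A dense cluster of microRNA genes lies within Sfmbt2 on the same strand, and reads from it could be counted with the gene. Sfmbt2 was the only naive-low gene among the 14 imprinted genes tested, of which 3 were called toward Cast and 3 toward 129, against 22.6% of all tested genes in either direction.

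Fbn2 (chromosome 18), the extracellular matrix protein fibrillin 2, had 1, 3 and 2 reads on the 129 allele and 194, 88 and 231 on the Cast allele. Summed, this is 513 reads against 6, a ratio of 85.5 with a counting interval of 39.0 to 234 (edgeR adjusted p = 0.00197). Cntn4 (chromosome 6), a contactin of neuronal adhesion, had 2, 4 and 3 reads against 56, 81 and 61, a ratio of 22 with an interval of 11.4 to 48.8 (edgeR adjusted p = 0.00168). In both genes nearly all reads of every sample were Cast reads, while their neighbours had naive Cast shares between 49.6% and 53.4%.

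Kirrel (chromosome 3), an adhesion protein of the nephrin family known from the kidney filter, had 9, 13 and 7 reads on the 129 allele and 120, 120 and 136 on the Cast allele. Its Cast share was 92.8% ± 2.45 (SD, n = 3) and the ratio 12.9-fold (log2 3.69, SE 0.28, edgeR adjusted p = 0.00207). The samples hardly differed, including replicate 3, where the neighbours reached a naive share of 60.1%. Perp (chromosome 10), a membrane protein of desmosomes and a p53 target, went the other way. It had 31, 54 and 35 reads on the 129 allele and 10, 10 and 6 on the Cast allele, a Cast share of 18.2% ± 5.37 (SD, n = 3). Its log2 ratio was -2.18 (SE 0.33, edgeR adjusted p = 0.0141), with an edgeR adjusted p of 0.0963 without replicate 2. Perp had no read in any naive sample.

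Mmp8 (chromosome 9), a collagenase best known from neutrophils, had 23, 20 and 29 reads on the 129 allele and 88, 74 and 93 on the Cast allele. Its Cast share was steady at 78.1% ± 1.62 (SD, n = 3), a ratio of 3.55-fold (log2 1.83, SE 0.19, edgeR adjusted p = 0.00499). The matched neutrophil markers summed to 2 to 4 reads in the same samples. Plod2 (chromosome 9), a lysyl hydroxylase that prepares collagen for cross-linking, had 15, 11 and 7 reads on the 129 allele and 60, 59 and 48 on the Cast allele. That is a share of 83.9% ± 3.66 (SD, n = 3) and a log2 ratio of 2.36 (SE 0.28, edgeR adjusted p = 0.00720), with an edgeR adjusted p of 0.0590 without replicate 2.

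Atp6v0e2 (chromosome 6), a subunit of the proton pump that acidifies endosomes and lysosomes, had 3, 2 and 1 reads on the 129 allele and 54, 71 and 44 on the Cast allele. Summed, the ratio was 28.2 with an interval of 12.7 to 77.8 (edgeR adjusted p = 0.00250). Nearly every read in each sample was a Cast read, while its neighbours leaned slightly to 129, with naive Cast shares of 45.2%, 45.5% and 47.4%. Ankle1 (chromosome 8), a DNA-cutting enzyme of dividing cells, had 10, 9 and 7 reads against 47, 60 and 45, a Cast share of 85.3% ± 2.49 (SD, n = 3, edgeR adjusted p = 0.00564). The neighbours of Ankle1 had raised shares in all 3 naive samples too, at 70.3%, 70.4% and 67.4%. Hist1h2ba (chromosome 13), a histone H2B of the testis, had 7, 2 and 8 reads against 28, 81 and 44, and its call (edgeR adjusted p = 0.0429) was lost whichever replicate was left out, with edgeR adjusted p between 0.0558 and 0.126. Histone copies or gene models may differ between the annotations of the strains.

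Among the other called genes, Enpep, Prkaa2, Phldb1, Tmprss4, Hsf2bp and Tmed6 all leaned toward Cast, with mean Cast shares from 68.9% for Tmed6 to 77.8% for Enpep. They fall outside the rule used to choose genes for description and are named to account for all calls toward Cast. Phldb1 had shares of 78.0%, 76.5% and 73.5%, and its neighbours had naive shares of 76.4%, 76.4% and 76.3%. Tmprss4, a membrane serine protease, likewise had neighbours at 78.7%, 79.0% and 76.6%. In both genes the surrounding genes leaned to Cast as well. For Prkaa2, the catalytic alpha 2 subunit of the energy sensor AMPK, the share was 76.5% with neighbours at 44.3%, 45.8% and 47.5%.

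Raised Cast shares over runs of neighbouring genes were a feature of these samples, seen after the data were examined. In windows of 25 consecutive genes measurable in naive cells, 9 of 273 windows had a median Cast share of at least 60% in all 3 stimulated samples, and 28 had it in 1 or 2 samples only. No window had 40% or less in any stimulated sample. On chromosome 2, the window from Rasgrp1 to Trp53bp1 had a median of 77.2% in stimulated replicate 1 and 46.0% in replicate 3, against 80.8% and 51.5% in the naive samples of the same numbers. On chromosome 14, the window from Mapk8 to Tep1 had 50.7%, 78.0% and 49.6% after CpG and 47.8%, 77.8% and 47.5% in naive cells. Most raised windows, but not all, were also raised in the naive sample of the same replicate number. In replicates 1, 2 and 3, 18 of 19, 19 of 23 and 19 of 23 windows raised after CpG were raised in that naive sample. With a naive sample of another number, the windows raised in both were 14 and 10 for stimulated replicate 1, 14 and 14 for replicate 2, and 12 and 13 for replicate 3.

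**Figure D4:**
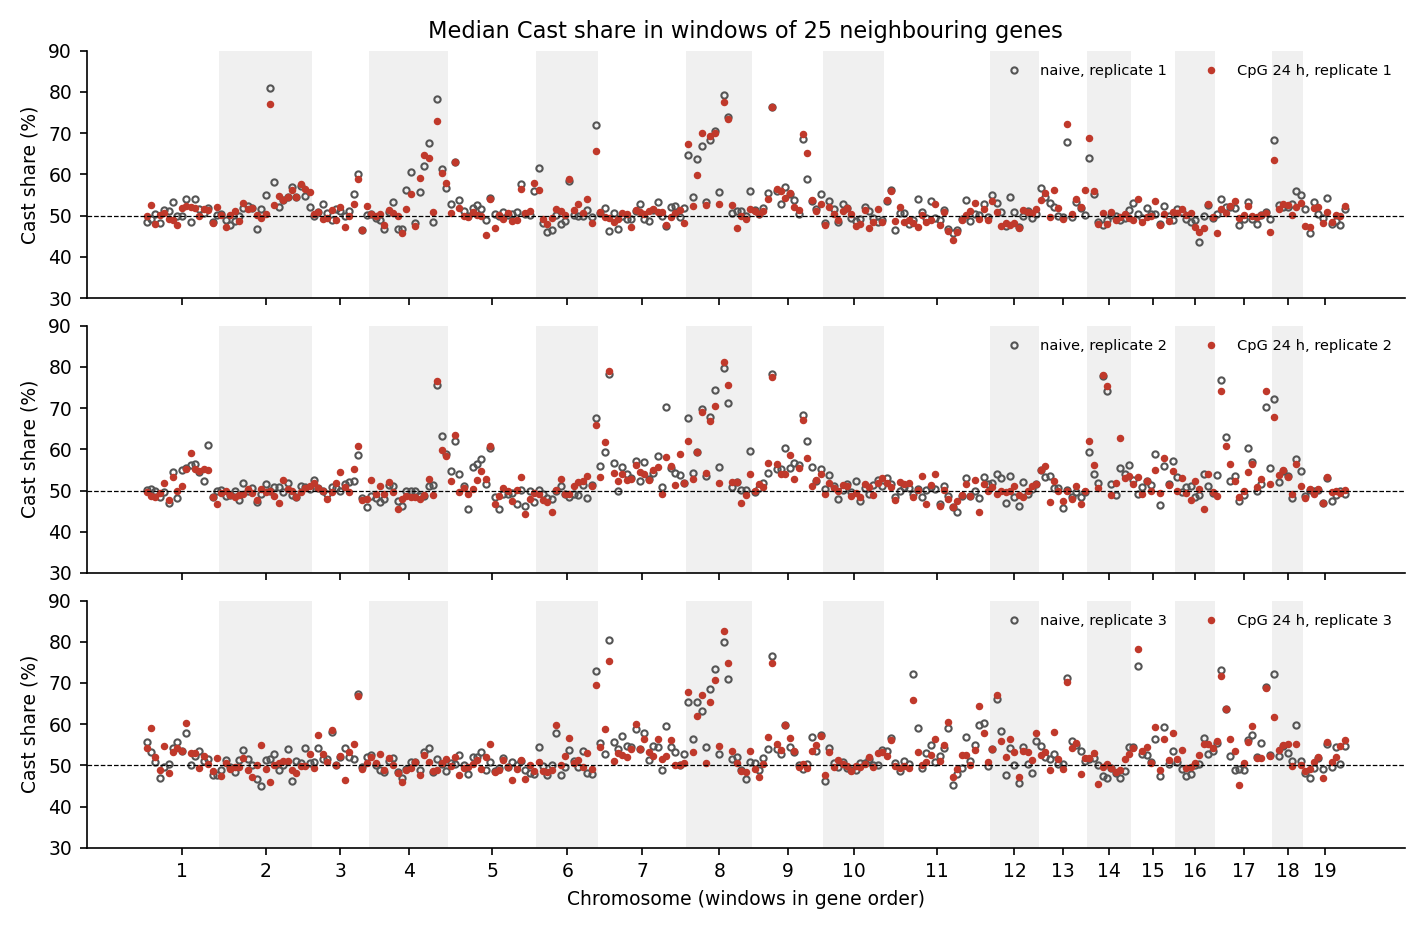
Median Cast share (percent, vertical axis) of windows of 25 neighbouring genes along chromosomes 1 to 19 (horizontal axis, in gene order), one panel for each replicate number, with naive samples as open grey circles and stimulated samples as red points. Most raised windows stand in the same places in the naive and stimulated sample of a number, such as chromosome 2 in replicate 1 only and chromosome 8 in all 3, and none falls to 40% after CpG.

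To set each naive-low gene beside its surroundings, the median Cast share of the 20 nearest genes measurable in naive cells was taken in the naive sample of the same number. At a limit of 60% or 40%, 20 of 87 naive-low genes with a position had shifted neighbours in at least 1 replicate, all toward Cast, against 1216 of 7764 tested genes (15.7%). The test was then fitted anew without the genes in such neighbourhoods. In that fit 21 of 67 naive-low genes were called, 12 toward Cast and 9 toward 129. Of 6548 tested genes 1689 were called, 950 and 739. Only 15 of the 21 and 1419 of the 1689 had also been called in the main fit. The median Cast share of the naive-low genes was then 51.3%, against 53.9% with all of them. Of the 24 genes called, 15 lay in neighbourhoods that were not shifted in any replicate, among them Il6, Fbn2, Cntn4, Atp6v0e2, Perp and Nupr1. The other 9 had shifted neighbours in at least 1 replicate, and of these 7 were called toward Cast and 2 toward 129. These 9 of 24 are a larger share than the 20 of 87 naive-low genes and the 15.7% of tested genes given above. Neither this difference nor the cause of the runs was tested.

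Some naive-low genes differed widely between samples. In 10 of 88 (11.4%) the Cast share ranged over at least 30 percentage points, against 7.18% of all tested genes, and none of the 10 was called. Among the between genes, which had a similar read number, the share was 12.0%, so such a range was not particular to naive-low genes. Those described next, apart from Strip2, Aunip and Cenpk, were chosen after their values were seen. Aunip, a centrosome and repair protein, had 3, 149 and 120 reads on the 129 allele and 292, 188 and 165 on the Cast allele. Replicate 1 was nearly all Cast, and there the neighbours stood at 64.8%, against 51.4% in replicate 2. Cacybp, a partner of the ubiquitin ligase SIAH1, had 31, 1 and 27 reads on the 129 allele and 36, 41 and 47 on the Cast allele, with neighbours at 49.3%, 67.9% and 51.0%.

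In other genes samples stood apart while the median share of the neighbours was not raised. Siah2, a ubiquitin ligase of the hypoxia response, had 38, 33 and 0 reads on the 129 allele and 23, 23 and 69 on the Cast allele. Its neighbours had naive shares of 50.5%, 50.1% and 51.0%. Strip2, a scaffold protein of a phosphatase and kinase complex, had 172, 73 and 30 reads on the 129 allele and 245, 135 and 358 on the Cast allele. Replicate 3 was high at 92.3% (95% Wilson interval 89.2 to 94.5), and the gene was not called (edgeR adjusted p = 0.277). Cenpk, a protein of the inner kinetochore, had 33, 104 and 42 reads on the 129 allele and 283, 136 and 306 on the Cast allele, shares of 89.6%, 56.7% and 87.9%. Replicates 1 and 3 were high and replicate 2 was closer to balance. The neighbours of Cenpk had median naive shares of 50.05%, 48.97% and 50.46%, and 3, 0 and 3 of them had a share of at least 75%. Cenpk was not called with the 3 stimulated samples (edgeR adjusted p = 0.156). It passed without replicate 2 (edgeR adjusted p = 0.0135), without a term for the sample (edgeR adjusted p = 0.0328) and with the naive samples in the fit (edgeR adjusted p = 0.0395). It also passed with DESeq2 on the 3 stimulated samples (adjusted p = 0.00517). In 4 of the 10 wide-ranging genes some replicate had raised neighbours, and in all 4 that replicate held the highest Cast share.

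**Figure D5:**
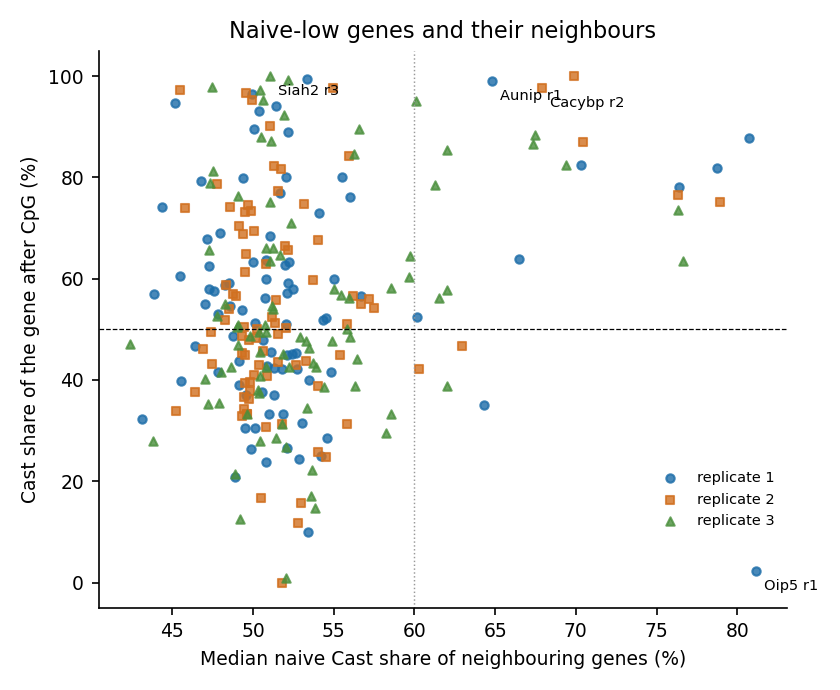
Cast share of each naive-low gene after CpG (percent, vertical axis) against the median Cast share of its 20 nearest measurable genes in the naive sample of the same number (percent, horizontal axis), one point per gene and replicate, coloured and shaped by replicate. Most points lie below 60% on the horizontal axis (dotted line) and spread over the whole vertical range, and the few points to its right lie mostly above 50%, with Oip5 in replicate 1 far below.

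The naive-low gene with a clone-type symbol and many reads, 1110032F04Rik, had 110, 104 and 123 reads on the 129 allele and 185, 229 and 145 on the Cast allele. The Cast reads were higher without overlap, and the ratio did not pass (log2 0.71, SE 0.21, edgeR adjusted p = 0.0838), although it did without replicate 3 (edgeR adjusted p = 0.0457). Gene models for such symbols may differ between the annotations of the strains. Lists of B cell fate factors and antibody genes, of interferon-stimulated genes and of the strain-divergent MHC and NK families held no naive-low gene. Among their tested members, 11 of 34, 5 of 23 and 6 of 14 were called, against 22.6% of all tested genes.

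The limit of 10 naive reads cut through genes of like kind. Of the 8 genes with exactly 9 reads in their highest naive sample, 3 were called, namely Tmed6, Mnd1 and Plod2. Of the 10 genes with exactly 10 reads, none was called. Cenpp, a kinetochore protein just outside, had 85, 65 and 63 reads on the 129 allele and 48, 67 and 52 on the Cast allele. At the limit of 30 reads, B9d1, with 30 reads in its lowest sample, was inside and Ulk4, with 29, was outside. Ulk4 had 6, 4 and 5 reads on the 129 allele and 23, 32 and 30 on the Cast allele.

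For genes already measurable in naive cells, the ratios after CpG can be set beside those before it. Of 7264 such genes, 1657 were called after CpG and 1660 (22.9%) in naive cells, and 1112 in both, which is 67.1% of the first and 67.0% of the second. Of the 1112, 1102 leaned to the same allele. Stimulated and naive samples of the same number shared deviations, and a change between them was not tested.

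The largest ratios in genes well read in naive cells were complete. Iglc1, a constant region of the lambda light chain, had 7904, 8685 and 7695 reads on the 129 allele and 0, 0 and 3 on the Cast allele. Gstp2, a glutathione transferase, had 401, 531 and 445 reads on the 129 allele and none on the Cast allele, at least 459-fold higher against a floor of 3 reads over the group. Pyhin1, an interferon-inducible DNA-binding protein, had 221, 328 and 257 reads on the 129 allele only, at least 269-fold higher against the same floor. On the Cast side, Hist1h2aa and Gm20379 (both chromosome 13) and mt-Nd6 had no 129 read in any sample and 1211 to 4343 Cast reads per sample. The symbol mt-Nd6 is that of a mitochondrial gene, but both annotations place it on chromosome 4. Its row may therefore not stand for an autosomal gene with an allele from each parent. These 6 genes had the same near-total share in naive cells. Copies or models of such genes may differ between the annotations of the strains, and a missing copy and a silent allele cannot be told apart here.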

How the data were processed

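The deposited tables held the authors' whole-number read counts per gene, not normalized, with 1 table per sample for the 129S1/SvImJ and 1 for the CAST/EiJ annotation, per the file contents. The submitters' processing notes name STAR, featureCounts, Subread 2.0.0 and mm10, while the tables end in rows of totals of the htseq-count kind. How a read was given to a strain is not given in the sources used here. Libraries were made with a TruSeq stranded total RNA kit, per the labels' protocols. Rows that name no gene stayed out, and their share differed by allele. After CpG, reads counted to no feature were 48.1 to 56.7% in the 129 tables and 44.5 to 52.3% in the Cast tables. The total for this share was gene, no-feature and ambiguous reads. Genes without a name held 7.13 to 7.59% of gene reads in the 129 tables and 14.4 to 15.3% in the Cast tables. The effect of this difference on the ratios of single genes was not tested.

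The quasi-likelihood test of edgeR 4.0.16 (run in R 4.3.3) compared Cast with 129 columns, with a term for the sample, 1 library size for both columns of a sample and Benjamini-Hochberg adjustment over 7969 genes. Fold changes are fitted values; where an allele had few reads, ratios of summed reads with exact counting intervals are given. Intervals and floors (3 reads) cover counting error only, since reads carry no molecular identifiers. Stimulated and naive samples of the same number deviated together (r = 0.672, 0.588 and 0.673 across 7264 genes, which are not independent replicates), so the numbers were taken to pair samples. Each deviation was taken from the mean of the 3 samples of its group. The other pairs had r of -0.258 to -0.446. These are no separate support, since the centring makes them negative on balance when same-number pairs are positive. On simulated data with 7969 genes, the test found 68 of 100 genes changed by a log2 of 1 and all 100 changed by a log2 of 2, with 7 false calls. The changed genes were drawn from all tested genes, every gene had the same spread setting, and the rest had equal alleles. Runs of shifted neighbours were not simulated, and recovery among naive-low genes alone was not measured.

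The members and gene lists were chosen with earlier results of these data known. Genes described were the 10 largest called ratios in each direction among naive-low genes, the 6 with most reads, up to 5 called and 3 other members per list, and the 3 largest ratios per direction among genes with at least 100 reads in each naive sample. Gene order, types and overlaps came from GENCODE M21; neighbourhoods of 20 genes, windows and the analyses that use them were added after the data had been examined. Results for a few members that the rule selects are not reported here.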

Additional observations from a re-analysis of the deposited data

How the results depend on the processing

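The count of 1801 unequal genes became 987 when a log2 ratio above 0.5 was required, and 948 to 1706 with 1 replicate left out. Among naive-low genes, 24 became 46 of 243 at a minimum of 10 reads, 9 of 24 at 100 reads and 61 of 1354 without a minimum. It became 12 of 35 with under 5 naive reads, 58 of 202 with under 20, and 11 to 22 with 1 replicate left out; fewer or more genes entered each of these, or fewer samples. With no replicate block, ignoring the pairing of alleles within a library, 1846 and 29 were called; DESeq2 called 1629 and 26. The median naive-low Cast share was 56.9% at 100 reads, 51.1% to 55.8% with 1 replicate left out (lowest without replicate 1), and 51.3% or 49.5% without genes in neighbourhoods beyond 60 and 40% or 55 and 45%. The autosomal Cast read share of 52.9% was then 51.7% or 50.4%. Slc43a3 turned to a log2 ratio of 0.020 without replicate 3 (from -0.46 without replicate 1) and Recql4 to -0.048 with TMM factors; the cause was not tested, and both were near balance. Of 24 called genes chosen by the rule for description, 14 kept the call in every alternative run on single genes. These 24 are not the 24 called naive-low genes, since they include the largest ratios among genes well read in naive cells. The naive-low genes that kept the call were Oip5, Il6, Mmp8, Mnd1, Ankle1, Kirrel, Cntn4, Atp6v0e2 and Fbn2. Nupr1 also lost it without the block (edgeR adjusted p = 0.134), and Iglc1 without replicate 1 (edgeR adjusted p = 0.107). With a mean of 33 to 724 reads per sample for a naive-low gene, small ratios could not be judged at this depth.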
